A study of Mus musculus with 6 samples.

Results

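The genes described here are the mouse genes whose symbol is Gpr followed by a number, most of them G protein-coupled receptors that were named before a ligand was known. Members were rows with such a name in the deposited tables, other than Gpr17 and Gpr34, with 30 or more counts summed over the 6 libraries; 63 of 26554 features qualified. Of 73 features with a name of this form, 2 were left out by name and 8 fell under the minimum, with Gpr18 (28 counts) just below it and Gpr171 (39 counts) just above it. The name is not a family: it also covers Gpr89, Gpr107, Gpr108, the Gpr137 genes and Gpr155, multi-pass proteins of the Golgi, endosomes or lysosomes. By prior knowledge of where each is found, 11 members were classed as leukocyte genes (myeloid cells, microglia or lymphocytes), 30 as neuronal, 6 as glial or vascular, 10 as intracellular or ciliary and broadly expressed, and 6 as other.

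RNA was taken from the VPL and VPM, ventral posterior nuclei of the thalamus that relay touch and pain to the cortex. The mice were wild-type C57 animals, sampled 14 days after the right VPL/VPM was injected. One group of 3 libraries received 10 nL of type IV collagenase (0.01 U), which digests vessel basement membrane and causes a small haemorrhage used to model central post-stroke pain, and the other group of 3 received 10 nL of saline. Poly(A) RNA was sequenced to between 33603076 and 44815451 counts per library. Whether each library is 1 animal or a pool is not stated in the labels, so p-values measure the spread between these libraries, which may be technical.

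A G protein-coupled receptor crosses the membrane repeatedly and passes a ligand signal to a G protein inside the cell, which then alters cyclic AMP, calcium or the cytoskeleton. Several leukocyte members sense products of tissue damage: Gpr65 and Gpr132 respond to protons, Gpr84 to medium-chain fatty acids and Gpr183 to an oxysterol that guides cell migration. Many neuronal members remain without an accepted ligand, and some, such as Gpr3, Gpr6 and Gpr12, raise cyclic AMP without one.

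After collagenase 2 members rose, both of the leukocyte class, and 0 fell. Gpr65, the proton-sensing receptor of leukocytes and microglia, was 5.73-fold higher in mean level, and Gpr183, the oxysterol receptor, 3.14-fold. None of the 30 neuronal members passed. The test was the edgeR quasi-likelihood F-test, with p-values adjusted over 17240 genes by the Benjamini-Hochberg method and a threshold of 0.05. Of all those genes 2.12% passed as higher and 0.29% as lower, and 60 of the 63 members had counts enough to be among them. The 2 calls are therefore near the background share for the name as a whole (3.33% of tested members passed), and both lie among the 9 tested leukocyte members. In 5 of the 6 fits that left out 1 library 0 members rose, and without saline replicate 3 those that rose were Gpr183 and Gpr139. Saline replicate 3 stood apart from the other saline libraries in markers of neighbouring regions. Without it the sign of the log2 fold change differed for 8 of the 60 tested members, and values without it are given beside several members.

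The 250 bases before the RefSeq start of these 2 genes (GRCm38.p6) are shown because they are the members that rose; capitals mark a match to the motif GAGGAA, the core bound by the myeloid factor PU.1, on either strand.
Gpr65 (chr12:98268385-98268634, plus strand): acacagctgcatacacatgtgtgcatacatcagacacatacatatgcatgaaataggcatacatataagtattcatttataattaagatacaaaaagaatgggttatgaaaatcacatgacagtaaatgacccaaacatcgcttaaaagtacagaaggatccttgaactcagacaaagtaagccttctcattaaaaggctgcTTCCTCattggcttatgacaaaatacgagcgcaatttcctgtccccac
Gpr183 (chr14:121965194-121965443, minus strand): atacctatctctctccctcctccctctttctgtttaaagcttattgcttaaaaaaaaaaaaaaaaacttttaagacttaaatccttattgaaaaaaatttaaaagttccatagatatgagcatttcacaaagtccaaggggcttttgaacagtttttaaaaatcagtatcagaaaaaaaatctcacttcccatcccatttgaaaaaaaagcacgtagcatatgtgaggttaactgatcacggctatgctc
The Gpr65 window held 1 match, starting 48 bases before the gene start and read on the opposite strand, and the Gpr183 window held none. Both windows are rich in A and T, with a GC content of 36.8% for Gpr65 and 32.0% for Gpr183. A RefSeq window was found for 46 of the 63 members. GAGGAA was in the window of 2 of the 10 leukocyte members with one (Gpr35 and Gpr65) and of 2 of 18 neuronal members, against 23.3% of all 32851 windows. For each motif a member was counted once if any window under its name matched, whereas the background is a share of windows, not genes. The AP-1 motif TGANTCA was in 2 of the 10, Gpr15 and Gpr35, against 6.75% of all windows, and in none of the 18; the ETS-IRF composite motif was in none of either class and in 2.3% of all windows.

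Gpr65 (ENSMUSG00000021886, chromosome 12, 98268635 to 98276644, plus strand, GRCm38) measured 0.451, 0.233 and 0.235 CPM in saline replicates 1, 2 and 3, where CPM is the count scaled to the size of its library. It measured 2.77, 1.53 and 0.959 CPM in collagenase replicates 1, 2 and 3. Every collagenase library was above every saline library, and collagenase replicate 1 was highest. The log2 fold change was 2.49 with a standard error (SE) of 0.49 and an edgeR adjusted p of 0.0416. These values rest on 36 counts in saline and 226 in collagenase libraries. The call ended in all 6 fits without a library (adjusted p 0.0516 to 0.145), while the log2 fold change stayed between 1.99 and 2.89. Exons of the gene overlap those of the antisense gene Gm47566, and without strand information their reads cannot be told apart.

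Gpr183 (ENSMUSG00000051212, chromosome 14, 121952551 to 121965195, minus strand, GRCm38) measured 1.04, 0.873 and 0.851 CPM in the saline libraries. It measured 3.91, 2.2 and 2.57 CPM in the collagenase libraries. The groups did not overlap, and collagenase replicate 1 was again the highest. The log2 fold change was 1.65 (SE 0.30, edgeR adjusted p 0.0295) and lay between 1.37 and 1.81 without 1 library. The call held without saline replicate 3 and ended in the other 5 such fits (highest adjusted p 0.124). The gene lies inside Ubac2 on the opposite strand, with no shared exon, and Ubac2 itself had a log2 fold change of -0.13 (edgeR adjusted p 0.755).

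**Figure D1:**
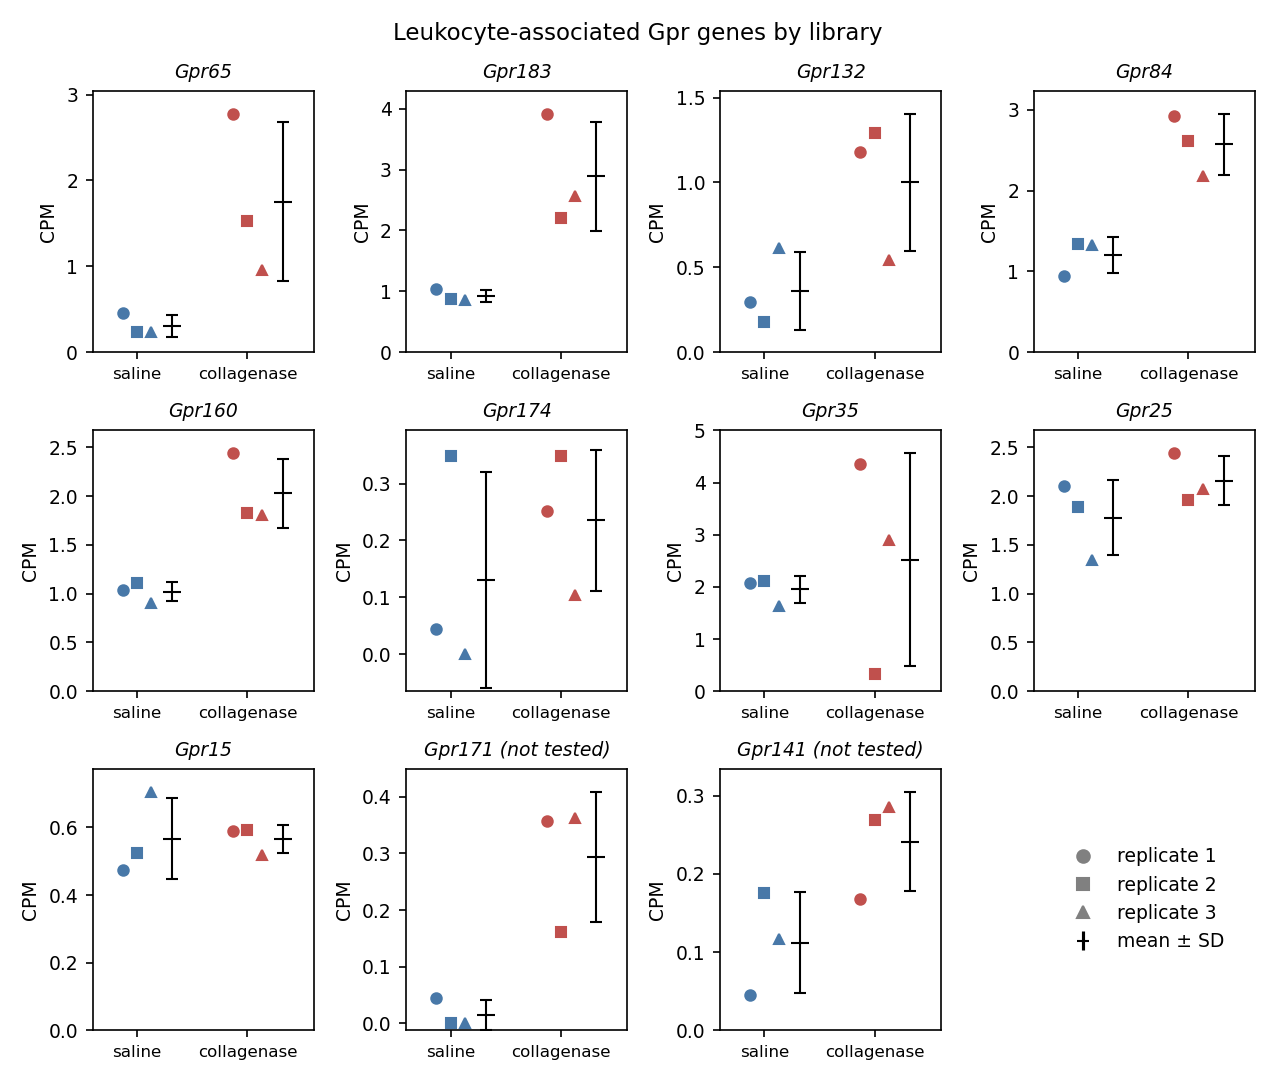
CPM (vertical axis, its own scale in each panel) of the 11 leukocyte Gpr genes in 3 saline and 3 collagenase libraries; points are libraries, their shape is the replicate number, and the bar is the mean ± SD. Gpr65, Gpr183, Gpr84, Gpr160 and Gpr171 show no overlap between the groups, and Gpr35 has 1 collagenase library far below the others. Gpr171 is a member only through its collagenase counts.

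The other leukocyte members did not pass the test or had too few counts for it. Gpr84, a receptor for medium-chain fatty acids made by activated microglia and macrophages, measured 0.946, 1.34 and 1.32 CPM in saline and 2.92, 2.61 and 2.18 CPM in collagenase libraries. Its groups did not overlap. The fitted log2 fold change was 1.1, with a 95% interval from 0.50 to 1.70 (edgeR adjusted p 0.0862). Gpr160, an orphan receptor, measured 1.04, 1.11 and 0.909 CPM in saline and 2.44, 1.83 and 1.81 CPM in collagenase libraries. It too showed no overlap, with a log2 fold change of 0.99 (interval 0.39 to 1.59, edgeR adjusted p 0.126). Gpr132, which responds to protons and oxidised lipids, measured 0.293, 0.175 and 0.616 CPM in saline and 1.18, 1.29 and 0.544 CPM in collagenase libraries. Here collagenase replicate 3 fell below saline replicate 3, so the groups overlapped (log2 fold change 1.48, interval 0.26 to 2.70, edgeR adjusted p 0.293, or 2.07 without saline replicate 3). DESeq2, another count test, passed Gpr84 (log2 fold change 1.11, adjusted p 0.0267) besides Gpr65 and Gpr183.

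Of the lymphocyte members, Gpr171 and Gpr174 lay near the limit of counting. Gpr171, an orphan of lymphocytes, was not tested, with counts of 2, 0 and 0 after saline and of 17, 6 and 14 after collagenase. The ratio of its summed counts after scaling was 16.9, with a 95% exact (Clopper-Pearson) interval of 4.36 to 144.9 that covers counting error only. Without a filter on low counts its edgeR adjusted p was 0.163. Gpr174, a lysophosphatidylserine receptor, measured 0.0451, 0.349 and 0 CPM in saline and 0.252, 0.349 and 0.104 CPM in collagenase libraries, which overlapped. Gpr15 and Gpr25, receptors known from T cells, had log2 fold changes of 0.00 (interval -0.78 to 0.78) and 0.28 (interval -0.32 to 0.87). Gpr15 measured 0.473, 0.524 and 0.704 CPM in saline and 0.588, 0.591 and 0.518 CPM in collagenase libraries, and its exons overlap those of Cpox on the other strand. Gpr25 measured 2.10, 1.89 and 1.35 CPM in saline and 2.44, 1.96 and 2.07 CPM in collagenase libraries, so the levels of both overlapped between groups. The values of Gpr25 rest on 204 saline and 269 collagenase counts. It lies inside the antisense gene Gm26781, and their exons overlap. Gpr141, an orphan of myeloid cells with 12 saline and 29 collagenase counts, was not tested.

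Gpr35, a receptor for which kynurenic acid and lysophospholipids have been proposed as ligands, has an uncertain level. In saline its CPM was 2.07, 2.12 and 1.64, and after collagenase it was 4.35, 0.323 and 2.90, so collagenase replicate 2 was the lowest of all 6. In FPKM, the authors' length-scaled value, the same libraries measured 0.473, 0.568 and 0.545, then 1.43, 0.632 and 0.884, with no overlap between groups. The ratio of counts to FPKM, which should be constant for a gene once depth is allowed for, differed 8.43-fold between libraries. In no other member did this ratio differ by more than 1.17-fold.

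All 9 tested leukocyte members had a log2 fold change at or above 0, with a median of 0.99. The median was -0.02 for all 17240 genes, -0.07 for the 30 neuronal members and 0.62 for the 5 tested members classed as other. The leukocyte median lay between 0.84 and 1.21 when 1 library was left out, with 7 to 9 members positive. The groups did not overlap, with collagenase higher, for 4 of these 9, against 10.1% of all tested genes. Over all 60 tested members 14 showed this pattern and 6 the reverse, where 7.5% of all genes had every collagenase library lower. The summed level of the 11 leukocyte members was 8.54, 8.79 and 7.74 CPM in saline and 21.4, 13.1 and 14.3 CPM in collagenase libraries, a ratio of means of 1.95. This sum includes Gpr35, whose level is uncertain, and Gpr171, a member only through its collagenase counts.

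Markers of microglia and macrophages moved in the same direction: 11 of 14 rose, and their summed level was 350.8 to 405.9 CPM in saline and 961.8 to 1511.1 CPM in collagenase libraries, 3.22-fold in means. P2ry12, Tmem119 and Itgam did not pass. Collagenase replicate 1 was highest for this sum, as for Gpr65, Gpr183, Gpr84, Gpr160, Gpr25 and Gpr35. That library was not the highest for the leukocyte members Gpr132, Gpr141, Gpr171, Gpr174 and Gpr15. Of 5 tested T cell markers 4 rose, and Cd3d, Cd3e, Cd3g, Cd8a and Nkg7 had 0 counts in every saline library. The 4 that rose were among these and had counts enough for the test only through the collagenase libraries. The share that rose was therefore partly set by the count filter. The 6 T cell markers found summed to 0.378 to 13.1 CPM in saline and 3.6 to 10.6 CPM in collagenase libraries, the saline maximum being Cd4 in replicate 3. The 6 neutrophil markers summed to 5.43 to 7.51 CPM and 20.7 to 26.5 CPM, most of it Csf3r, which microglia also express and which rose, while Elane had 0 counts throughout. The 4 B cell markers summed to 0.473 to 0.756 and 0.914 to 1.74 CPM. The part of these cells in the changes of the Gpr genes was not tested, and in tissue RNA more cells of a type and more RNA per cell cannot be told apart.

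**Figure D2:**
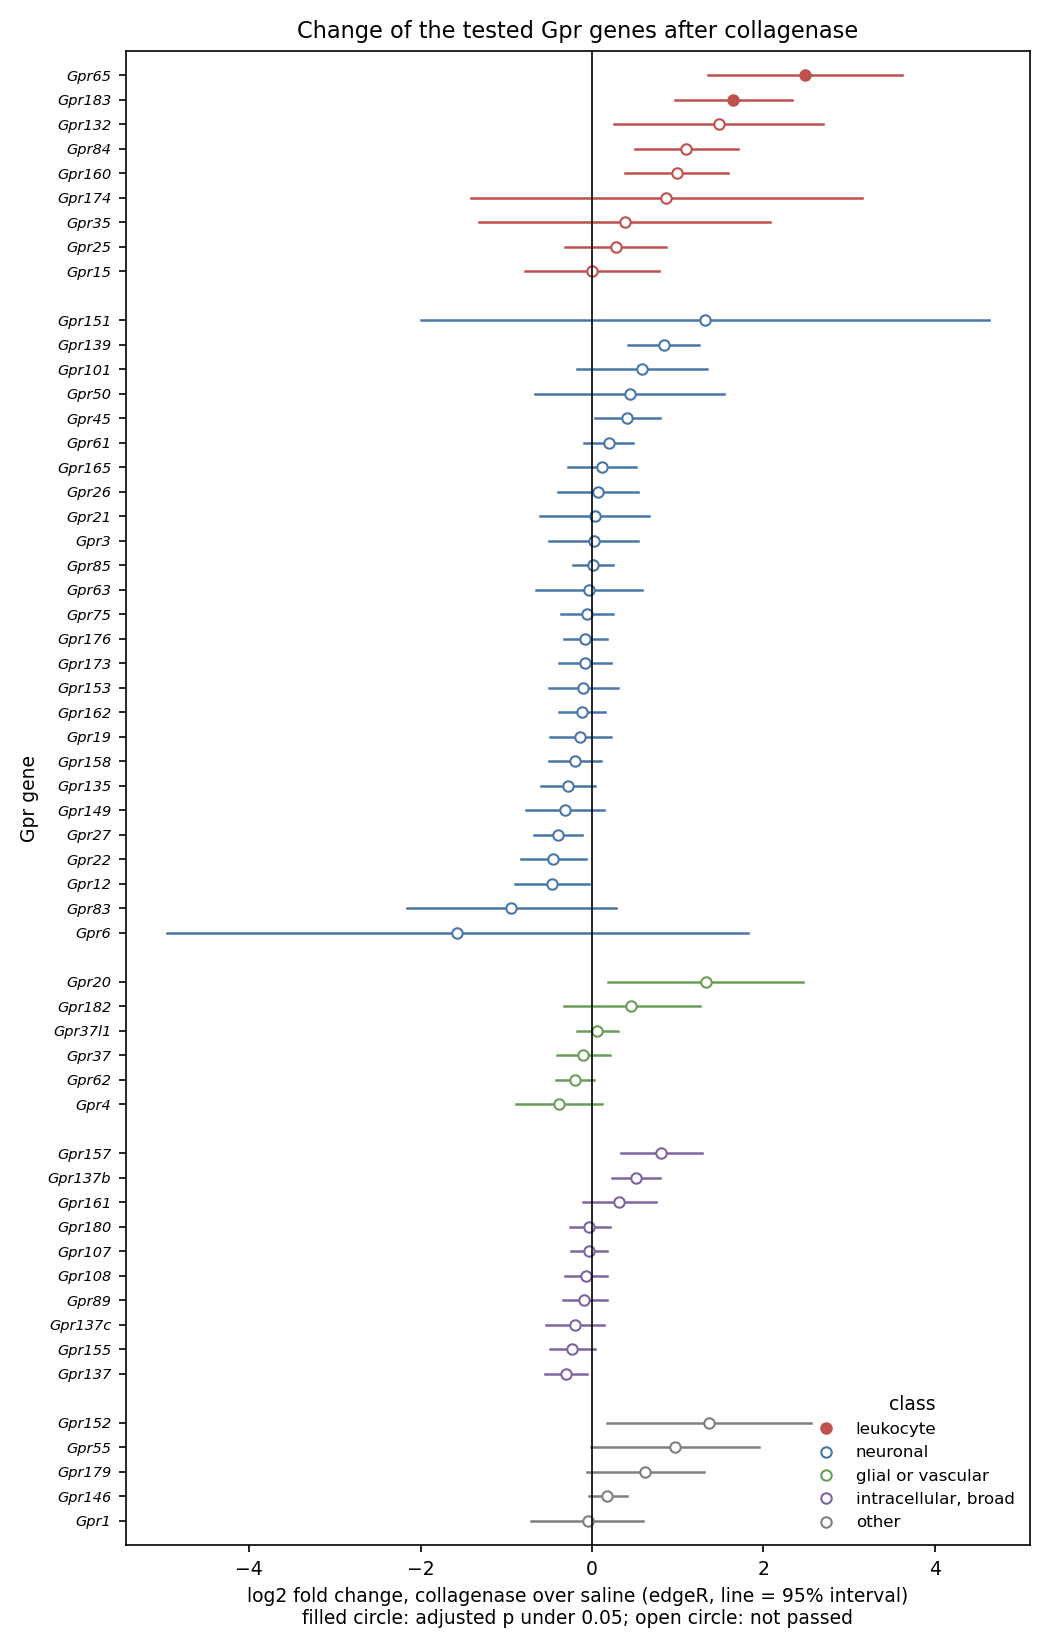
Log2 fold change, collagenase over saline (horizontal axis), for 56 of the tested Gpr genes grouped by class; lines are 95% intervals and filled circles passed at an edgeR adjusted p under 0.05. The filled circles are Gpr65 and Gpr183; most neuronal intervals include 0, and those of Gpr151 and Gpr6 are the widest shown.

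The neuronal class had the largest summed level of the classes. Of its 30 members 0 passed in edgeR, DESeq2 passed 1 and limma-voom 0. An unadjusted p under 0.05 was reached by 5 of the 30 (16.7%), beside 12% of all tested genes (2075 of 17240). For 22 of the 30 the 95% interval lay inside a 2-fold change in either direction. Among those whose intervals reached past that size were Gpr101, Gpr139, Gpr151, Gpr50, Gpr6 and Gpr83. Their sum was 805.4, 748.8 and 1053.9 CPM in saline and 752.8, 740.3 and 776.8 CPM in collagenase libraries, with saline replicate 3 above the rest.

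Gpr158, a class C receptor that binds the G protein regulator Rgs7, measured 165, 152 and 210 CPM in saline and 145, 159 and 155 CPM in collagenase libraries. The groups overlapped, and the log2 fold change was -0.20 (interval -0.50 to 0.10), or -0.05 without saline replicate 3. Its partner Rgs7 had a log2 fold change of -0.21 (edgeR adjusted p 0.658), and 0 of 7 listed partner genes passed. Gpr162, an orphan, measured 178, 160 and 138 CPM in saline and 136, 156 and 144 CPM in collagenase libraries (log2 fold change -0.12, interval -0.39 to 0.15). Gpr153, a related orphan, measured 107, 82.9 and 134 CPM, then 89.8, 99.1 and 114 CPM (log2 fold change -0.10, interval -0.50 to 0.30, or 0.08 without saline replicate 3). Both overlapped between groups.

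The constitutively active receptors differed in level but none passed. Gpr12, which is known from thalamic neurons, measured 42.2, 36.6 and 60.4 CPM in saline and 29.0, 34.6 and 36.8 CPM in collagenase libraries. The groups met only at saline replicate 2 and collagenase replicate 3, and the log2 fold change of -0.47 (interval -0.90 to -0.04, edgeR adjusted p 0.36) was -0.24 without saline replicate 3. For its relative Gpr3 the log2 fold change was 0.02 (interval -0.50 to 0.54), or 0.30 without that library. Gpr26, another constitutively active orphan, measured 26.2, 38.6 and 46.4 CPM, then 42.9, 32.6 and 40.9 CPM, and the groups overlapped.

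Of the super-conserved receptors expressed in brain, Gpr85 was the steadiest, at 23.4, 21.9 and 24.4 CPM in saline and 23.3, 23.0 and 23.9 CPM in collagenase libraries (log2 fold change 0.01, interval -0.22 to 0.24). Gpr173 was similar, with a log2 fold change of -0.08 and an interval of -0.38 to 0.22. Gpr27 measured 23.5, 25.9 and 20.6 CPM in saline and 17.5, 16.8 and 18.7 CPM in collagenase libraries. Every collagenase library was lower, with a log2 fold change of -0.40 (interval -0.68 to -0.12, edgeR adjusted p 0.197). Gpr22, an orphan of neurons and heart muscle, measured 37.8, 45.8 and 28.4 CPM, then 26.3, 27.5 and 28.5 CPM (log2 fold change -0.45, edgeR adjusted p 0.313). Saline replicate 3 lay with the collagenase libraries for Gpr22. Without that library Gpr22 passed (log2 fold change -0.61, edgeR adjusted p 0.0227), as did Gpr27 (-0.48, edgeR adjusted p 0.0405), and 414 genes in all were called lower in place of 50. The 8 markers of cortex and hippocampus, regions next to the thalamus, summed to 555.2 to 646.8 CPM in saline and 345.2 to 372.1 CPM in collagenase libraries, and 1 of them, Slc17a7, fell. Neurod6, chosen with its values in view, measured 23.0, 39.8 and 0.176 CPM in saline and 3.65, 0.538 and 0.57 CPM in collagenase libraries, so saline replicate 3 lay with the collagenase libraries as for Gpr22. The part of cortical or hippocampal tissue in these values was not tested.

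Gpr6 and Gpr83 turned on saline replicate 3. Gpr6, a constitutively active receptor of striatal neurons, measured 0.744, 0.465 and 12 CPM in saline and 3.00, 0.591 and 0.777 CPM in collagenase libraries. Gpr83, a neuropeptide receptor, measured 5.59, 6.57 and 18.4 CPM, then 7.75, 3.47 and 4.69 CPM. In both genes saline replicate 3 was highest and collagenase replicate 1 next. Their log2 fold changes of -1.57 and -0.94 (edgeR adjusted p 0.752 and 0.555) became 1.27 and -0.19 without saline replicate 3, so the direction of Gpr6 turned. The 7 striatal markers were highest in the same 2 libraries, with summed levels of 95, 110.7 and 693.5 CPM in saline and 224.0, 106.9 and 99.0 CPM in collagenase libraries, and 0 of them passed; their part in these values was not tested.

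Gpr151 and Gpr139 are receptors best known from the habenula, next to the thalamus. Gpr151 measured 2.19, 0.640 and 21.6 CPM in saline and 18.5, 8.63 and 33.6 CPM in collagenase libraries. Saline replicate 3 lay among the collagenase libraries, and the log2 fold change was 1.32 with an interval from -2.0 to 4.63 (edgeR adjusted p 0.789), or 3.80 without that library (adjusted p 0.12). The 10 habenular markers summed to 38.7, 55.7 and 187.5 CPM in saline and 167.7, 96.0 and 224.7 CPM in collagenase libraries, with the same 3 libraries highest as for Gpr151; 1 of them, Vav2, rose. Gpr139, a receptor for aromatic amino acids, measured 4.66, 5.44 and 6.31 CPM in saline and 8.57, 9.44 and 11.3 CPM in collagenase libraries. Its groups did not overlap and its spread within a group was small, with a log2 fold change of 0.84 (SE 0.18, interval 0.42 to 1.25). It missed the threshold in edgeR (adjusted p 0.0572), passed in DESeq2 (adjusted p 0.00257) and passed in edgeR without saline replicate 3 (adjusted p 0.0289). The part of habenular tissue in either gene was not tested.

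**Figure D3:**
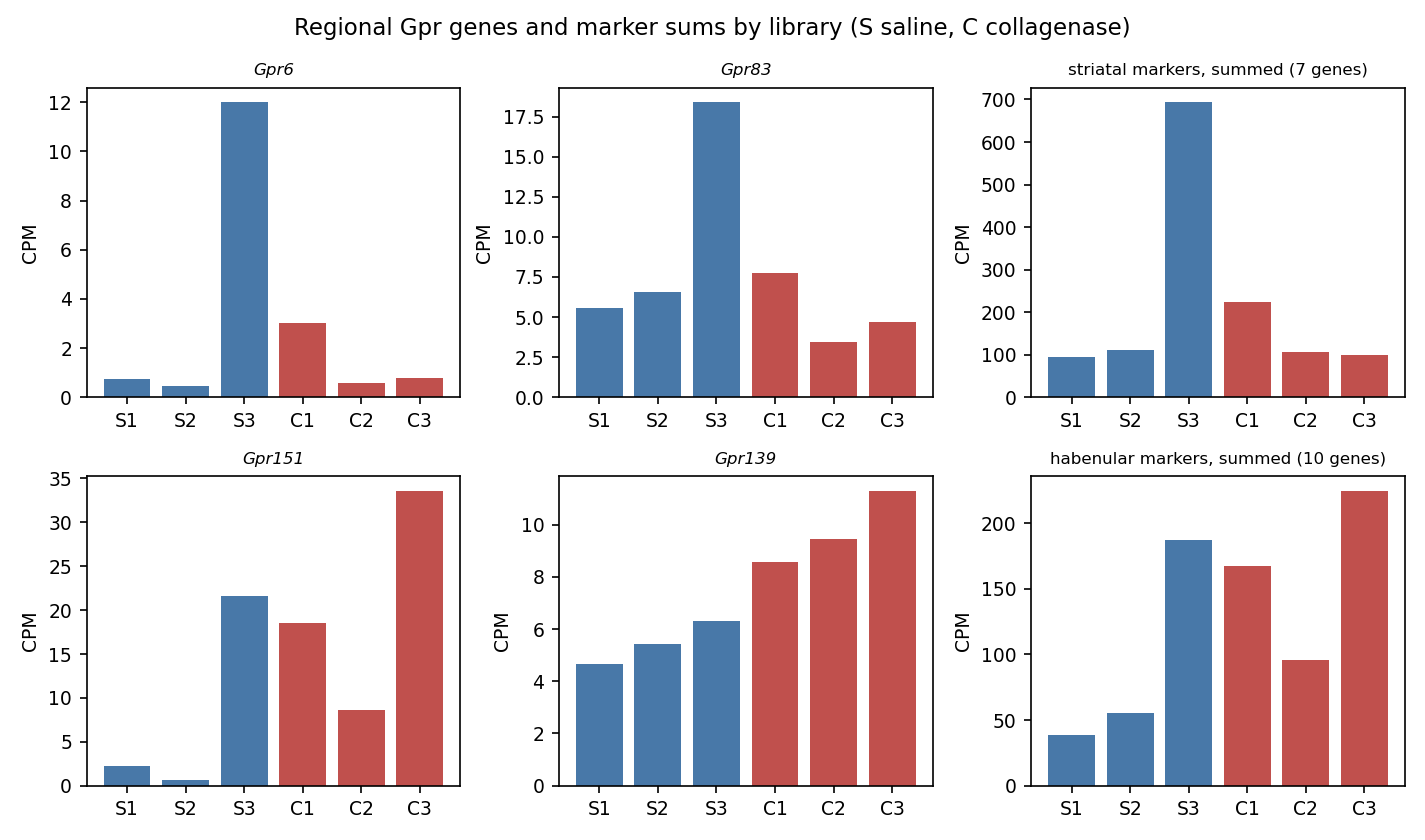
CPM (vertical axis) of 4 regional Gpr genes and of the summed striatal and habenular markers in saline libraries 1 to 3 (S1 to S3, blue) and collagenase libraries 1 to 3 (C1 to C3, red). Gpr6, Gpr83 and the striatal sum peak in S3 (12, 18.4 and 693.5 CPM), whereas Gpr139 is higher in every collagenase library.

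Another 12 neuronal members stayed between log2 fold changes of -0.32 (Gpr149) and 0.59 (Gpr101), and their edgeR adjusted p ran from 0.369 (Gpr45) to 0.983 (Gpr21). Among them every collagenase library was higher for Gpr45 and Gpr61 and lower for Gpr135 and Gpr176. Gpr45, an orphan, measured 6.47, 7.36 and 5.90 CPM in saline and 8.30, 9.97 and 7.88 CPM in collagenase libraries. Gpr19, Gpr21, Gpr50, Gpr63, Gpr75, Gpr101, Gpr149 and Gpr165 overlapped between groups.

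Of 6 glial and vascular members 0 passed, and 1 (16.7%) had an unadjusted p under 0.05, beside 12% of all genes; DESeq2 and limma-voom passed 0 as well. Gpr37l1, an astrocyte receptor, measured 295, 287 and 251 CPM in saline and 293, 292 and 286 CPM in collagenase libraries (log2 fold change 0.06, interval -0.17 to 0.30). Gpr37, its oligodendrocyte relative, measured 179, 160 and 167 CPM, then 179, 164 and 127 CPM (log2 fold change -0.10, interval -0.41 to 0.21). Both overlapped between groups, and Psap, whose product prosaposin has been proposed as their ligand, had a log2 fold change of 0.28 (edgeR adjusted p 0.38). Gpr62, an oligodendrocyte receptor, had a log2 fold change of -0.20 (interval -0.42 to 0.02) with every collagenase library lower. Gpr4, the endothelial proton sensor, had -0.39 (interval -0.89 to 0.12, or -0.13 without saline replicate 3) and Gpr182, an endothelial chemokine scavenger, 0.46 (interval -0.33 to 1.26), each with overlap. Gpr20 measured 0.180, 0.233 and 0.235 CPM in saline and 0.378, 0.376 and 0.881 CPM in collagenase libraries, with no overlap (log2 fold change 1.33, edgeR adjusted p 0.317).

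Among the 10 intracellular and ciliary members 0 passed in edgeR and 3 (30%, beside 12% of all genes) had an unadjusted p under 0.05, while DESeq2 passed Gpr137b and Gpr157. Gpr137b, a lysosomal membrane protein linked to mTORC1 signalling, measured 17.3, 19.3 and 17.5 CPM in saline and 28.1, 26.4 and 22.5 CPM in collagenase libraries. Gpr157, a ciliary receptor, measured 4.33, 4.39 and 3.99 CPM, then 9.05, 7.69 and 5.57 CPM. In both genes every collagenase library was higher and replicate 1 highest, with log2 fold changes of 0.51 (interval 0.23 to 0.79, edgeR adjusted p 0.087) and 0.81 (interval 0.34 to 1.29, edgeR adjusted p 0.112). The paralogues of Gpr137b did not share its direction: Gpr137 had a log2 fold change of -0.30 (interval -0.55 to -0.06) and Gpr137c of -0.20 (interval -0.54 to 0.14). Gpr155, a lysosomal cholesterol sensor, had -0.23 (interval -0.49 to 0.04) and Gpr161, a ciliary regulator of Hedgehog signalling, 0.32 (interval -0.11 to 0.75). Gpr89, Gpr107, Gpr108 and Gpr180 lay between -0.09 and -0.03.

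Of the 6 other members 5 were tested and 0 passed in edgeR, DESeq2 or limma-voom, with 1 (20.0%, beside 12% of all genes) at an unadjusted p under 0.05. Gpr55, a receptor for lysophosphatidylinositol, measured 0.315, 0.291 and 0.528 CPM in saline and 1.05, 0.565 and 0.596 CPM in collagenase libraries. Gpr152, an orphan, measured 0.135, 0.0582 and 0.205 CPM, then 0.357, 0.323 and 0.363 CPM. Gpr179, known from retinal bipolar cells, measured 1.58, 3.26 and 3.17 CPM, then 3.49, 4.19 and 4.61 CPM. The groups of all 3 did not overlap, with log2 fold changes of 0.97, 1.37 and 0.62 (edgeR adjusted p 0.421, 0.331 and 0.469). Gpr146 had a log2 fold change of 0.18, also with every collagenase library higher, and Gpr1, a chemerin receptor, of -0.05. Such groups without overlap were found for 4 of the 5 tested, beside 10.1% of all tested genes. The median log2 fold change of this class was 0.62. Gpr39, a zinc receptor with 10 saline and 37 collagenase counts, was not tested.

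Per length, the members spanned over 3 orders of magnitude in mean FPKM over the 6 libraries, from Gpr37l1 (118.8) to Gpr174 (0.0342). Of the 63, 13 had a mean of at least 10 FPKM, 29 of 1 to 10 and 21 below 1. After Gpr37l1 came Gpr137 (65.5), Gpr162 (53.2), Gpr37 (31.7), Gpr153 (25.7) and Gpr158 (21.6); the ranges of Gpr137 (55.3 to 77.4) and Gpr162 (43.5 to 62.2) overlapped. The 2 members that rose sat low on this scale: Gpr183 went from 0.309 ± 0.0463 to 1.04 ± 0.367 FPKM and Gpr65 from 0.128 ± 0.0591 to 0.836 ± 0.478 FPKM (SD, n = 3 per group).

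**Figure D4:**
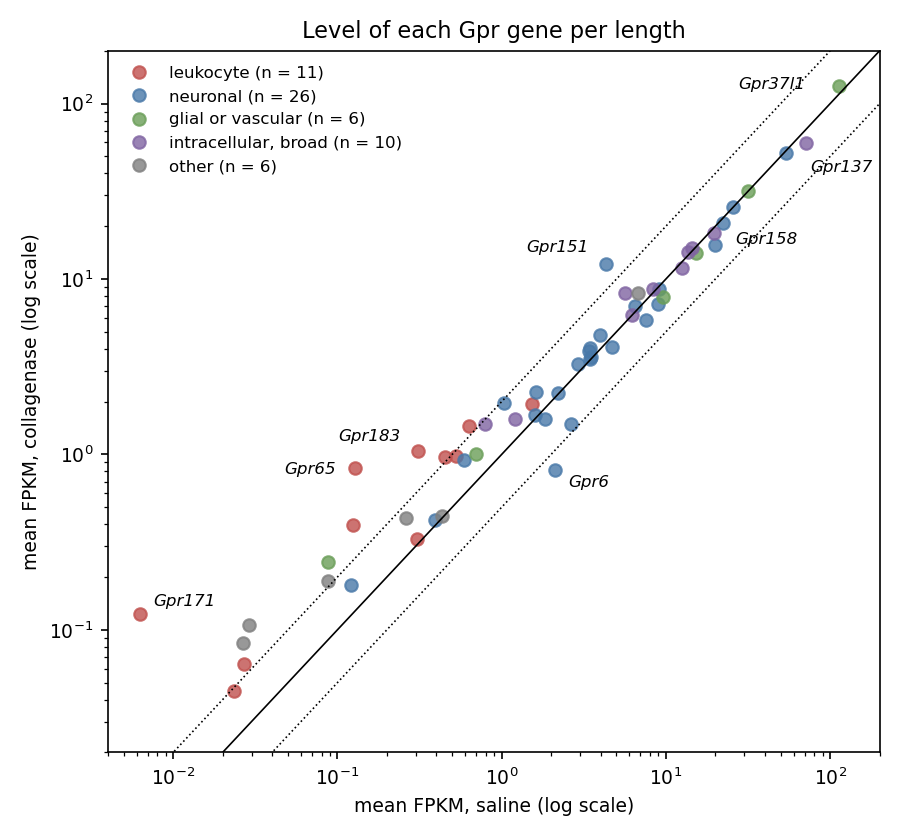
Mean FPKM in saline (horizontal, log scale) against mean FPKM in collagenase libraries (vertical, log scale) for 59 Gpr genes, coloured by class; the solid line marks equal levels and the dotted lines a 2-fold difference. Gpr65 (0.128 and 0.836 FPKM) and Gpr183 (0.309 and 1.04 FPKM) lie above the upper dotted line, and Gpr6 lies below the lower one.

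Genes around these receptors were read from lists of ligand enzymes, other lipid receptors and G protein parts. Of 5 enzymes that make or remove the oxysterol ligand of Gpr183, 0 passed in edgeR. Ch25h, which adds the first hydroxyl group, measured 0.406, 1.16 and 0.176 CPM in saline and 3.30, 2.04 and 4.79 CPM in collagenase libraries, with no overlap. Its log2 fold change was 2.54 (interval 1.14 to 3.95, edgeR adjusted p 0.0922). Ch25h passed in 1 of the 6 fits without a library (edgeR adjusted p 0.0217), and its log2 fold change lay between 2.13 and 3.49 in these fits. Cyp7b1 (13.2, 14.1 and 11.2, then 13.6, 12.6 and 12.4 CPM), Hsd3b7 (8.31, 10.6 and 5.72, then 9.87, 9.36 and 10.2 CPM) and Cyp27a1 (17.6, 13.9 and 12.5, then 14.9, 15.2 and 12.6 CPM) overlapped between groups. So did Hsd11b1, at 31.5, 27.1 and 25.7, then 24.0, 25.9 and 30.5 CPM, and the log2 fold changes of these 4 lay between -0.07 and 0.26.

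Of 29 tested receptors for lipid mediators and related ligands that are not named Gpr, 5 rose, 0 fell and 24 did not pass. The 17.2% that passed stand beside 2.12% of all tested genes that passed as higher and 0.29% as lower. Some of the 5, such as Hcar2 and P2ry10, had counts enough for the test only through the collagenase libraries. This share was therefore partly set by the count filter, which left 29 of 37 listed receptors. The median log2 fold change of the 29 was 0.44, beside -0.02 for all genes. Ptafr, the receptor of platelet-activating factor, measured 0.789, 0.902 and 0.763 CPM in saline and 7.92, 5.54 and 3.68 CPM after collagenase. The log2 fold change of 2.80 (SE 0.32, edgeR adjusted p 0.00463) passed in all 6 fits without a library. S1pr3, a receptor of sphingosine phosphate, had a mean of 8.76 ± 1.77 CPM in saline and of 20.4 ± 4.57 CPM in collagenase libraries (SD, n = 3 each); its call ended in 3 of those fits. Hcar2, a receptor of hydroxybutyrate and niacin, had 7 saline and 100 collagenase counts, and its call ended in 4. Ptgdr, a prostaglandin receptor, rose with a log2 fold change of 2.06, a call that ended in all 6. P2ry10, a lysophosphatidylserine receptor with 2 saline and 53 collagenase counts, had a scaled count ratio of 24.2 (exact interval 6.39 to 205.3), and its call ended in 5. Cnr2, the cannabinoid receptor of leukocytes, missed the threshold (edgeR adjusted p 0.0672), at 0.608, 0.756 and 0.557 CPM in saline and a non-overlapping 1.89, 1.75 and 1.27 CPM after collagenase. Cnr1, the neuronal cannabinoid receptor, had a log2 fold change of -0.62 (edgeR adjusted p 0.241).

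Of 34 tested G protein subunits, receptor kinases and arrestins 0 passed in edgeR, and 6 (17.6%, beside 12% of all genes) had an unadjusted p under 0.05. Gna15, an alpha subunit of blood cells, was higher in every collagenase library, at 1.78, 1.80 and 1.99, then 3.91, 3.15 and 2.75 CPM (log2 fold change 0.81, edgeR adjusted p 0.152). Gnai2, the main inhibitory alpha subunit of leukocytes, had a log2 fold change of 0.23, and the arrestins Arrb1 and Arrb2 had 0.25 and 0.31, each with no overlap and none past the threshold. In the other direction Gnb1 (-0.21) and Gnb5 (-0.23) were lower in every collagenase library, and Gnai1 (-0.33) was lower with overlap. Groups without overlap were higher for 5 of the 34 and lower for 2, beside 10.1% and 7.5% of all tested genes. The median of this list was -0.07, with 13 values positive and 21 negative.

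The tissue carried its defining markers: 10 of 10 thalamic relay markers and 8 of 8 pan-neuronal markers were tested and 0 of either passed, with sums of 2571.3 to 3848.8 CPM and 5783.9 to 7304.5 CPM in saline, and of 2557.2 to 3006.9 CPM and 4888.0 to 5789.1 CPM in collagenase libraries. Markers of GABAergic and reticular neurons did not keep to this: the 8 summed to 887.4 to 1204.3 CPM in saline and 605.8 to 810.1 CPM in collagenase libraries, with no overlap, and 1 of them, Dlx1, fell, as did Slc17a7 of the cortical and hippocampal list. Across all tested genes 366 rose and 50 fell.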

How the data were processed

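Each library came with a raw count and an FPKM value per feature, as the authors deposited them. Per the submitters' processing notes, FastQC, HISAT2 2.2.1, StringTie, DESeq2 and the build GRCm38 were used, without roles or order; for the annotation release, strandedness and multi-mapped reads, the setting is "not given in the sources used here". Deposited counts were whole numbers and went into every test. The authors' deposited FPKM values served only to compare levels between genes and to check the counts. In each file 10 lines without a count were skipped. Symbols outside the Gpr names were taken by Ensembl identifier, and positions from GENCODE M21 (GRCm38).

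The test was run in edgeR 4.0.16 under R 4.3.3 (filterByExpr, TMM factors of 0.898 to 1.06, robust quasi-likelihood F-test, two-sided, Benjamini-Hochberg over 17240 genes, threshold 0.05). Fold changes are collagenase over saline; the SE is the fold change divided by the root of F. Alternatives were RLE and upper-quartile scaling, DESeq2 1.42.0, limma-voom (limma 3.58.1), no filter, at least 10 counts in 3 libraries, each library left out in turn, and a replicate block. Exons of 20 members overlap exons on the opposite strand, whose reads the counts may share. In simulated counts for this comparison over 17240 genes, the fit called 61% of true 2-fold and 88.4% of true 4-fold changes, and 7.7% of its calls were unchanged genes. The changed genes were drawn at random from all levels, with the direction of each also random. These shares are averages over such genes and need not hold for members of low count.

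The members, classes and lists were chosen with earlier results of these data known. Values by library are given for members that passed, leukocyte members with enough counts, the 8 neuronal members of highest mean CPM, and members without overlap and a log2 fold change of at least 0.5 in either direction; values given for any other gene, and for further tools, were picked after they were seen. Some members are counted in the totals but not reported here.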

Additional observations from a re-analysis of the deposited data

How the results depend on the processing

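The number of members that rose was 2 in the main edgeR test and also with RLE or upper-quartile scaling, without a filter and with at least 10 counts in 3 libraries. It was 6 in DESeq2, which added Gpr84, Gpr137b, Gpr157 and Gpr139, and 1 in limma-voom, where Gpr65 missed the threshold (adjusted p 0.073). Leaving out 1 library gave 0 to 2 members higher and 0 to 2 lower; for leukocyte members the count higher was 0 to 1, and limma-voom gave 1. For neuronal members DESeq2 gave 1 higher, and leaving out 1 library gave 0 to 1 higher and 0 to 2 lower. Of the other listed receptors, enzymes and G protein genes, 5 rose, or 1 to 4 without 1 library, with 0 to 2 lower. With a replicate block 2 of these rose, while the members that rose stayed at 2 and the leukocyte members at 2; over the whole table calls went from 366 higher and 50 lower to 252 and 50. Whether replicate numbers pair the samples cannot be decided from so few libraries. Deviations from the group means correlated at 0.044, 0.107 and 0.203 for numbers 1, 2 and 3. Saline replicates 2 and 3 correlated most with the collagenase replicate of their own number. Saline replicate 1 correlated more with collagenase replicate 2 (0.076). Whole-table calls were 608 higher and 180 lower in DESeq2; without saline replicate 1 they were 81 and 4, without saline replicate 3 they were 503 and 414, and without collagenase replicates 1, 2 and 3 they were 149 and 58, 135 and 7, and 203 and 10. The cause of these differences was not tested. Depth limits the low members most: Gpr152, for example, rests on 15 saline and 43 collagenase counts, and its log2 fold change of 1.37 has an interval of 0.17 to 2.56.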
